A study of Mus musculus with 4 samples.

Results

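Axonemal dyneins are the motors of motile cilia, and the 31 genes described here encode their arms and the proteins that assemble and hold them. They were chosen by symbol from the 22556 genes of the FPKM table: every symbol beginning with Dnahc, Dnaic, Dnal or Dnaaf, and a fixed list of assembly factors, docking factors and regulators of the arms (Ccdc39, Ccdc40, Ccdc65, Ccdc103, Ccdc114, Ccdc135, Ccdc151, Ccdc164, Armc4, Lrrc6, Lrrc48, Zmynd10, Wdr63, Wdr78, Heatr2 and Txndc3). No symbol beginning with Dnaaf was in the table. The rule reads symbols only, although it was written with earlier results of these data known. The 31 genes comprised 10 heavy chains, 5 intermediate chains, 3 light chains, 3 outer arm docking factors, 4 assembly factors, 2 subunits of the ruler that spaces the inner arms, and 4 subunits of the nexin-dynein regulatory complex.

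The libraries were made from whole mouse lung at E16.5, with 2 per genotype. Control embryos were Shh-Cre; Stk11F/+, with a floxed and an intact allele of Stk11, which encodes a serine/threonine kinase and tumor suppressor. Shh-Stk11 embryos were Shh-Cre; Stk11F/F. Both genotypes thus carried the Shh-Cre driver, which is active in the endoderm that gives rise to the lung epithelium, and neither group was free of Cre or of a floxed allele. The strain given in the labels was C57BL/6, while the methods of the study spoke of a mixed background. The design text spoke of 2 lungs of each genotype, and the labels gave neither sex nor litter, although the study described its Controls at E16.5 as littermates.

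A motile cilium bends when dynein arms on one microtubule doublet of its axoneme walk along the next. Outer arms set the beat frequency and inner arms set the waveform, docking complexes fix the outer arms to the doublet, and the nexin-dynein regulatory complex links neighboring doublets. The arms are built in the cytoplasm with the help of dedicated assembly factors before they enter the cilium. In the lung, multiciliated cells of the airway epithelium use these genes, and inherited loss of many of them causes primary ciliary dyskinesia. Whether other cells of the lung also express some of them was not tested.

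FPKM values are reads scaled to transcript length and to library depth, so levels can be compared between genes. The steps between low FPKM values gave depths of 31.1 M to 38.3 M reads per library. At these depths Lrrc6, the tested gene with the fewest reads in a library, was measured by about 29.8 to 95.8 reads per library, and Dnalc1 by about 1231 to 1590 reads. Stk11 was at 44.0 and 45.5 FPKM in the Control libraries and at 29.5 and 25.95 FPKM in the Shh-Stk11 libraries, a log2 fold change of -0.69 (SE 0.125) with an adjusted p of 0.0499 in limma, at the edge of the threshold. Y-linked Ddx3y reached 23.5 FPKM in library Shh-Stk11 2, where Xist was at 0.239 FPKM, whereas the other 3 libraries had no more than 0.0285 FPKM of Ddx3y and at least 65.1 FPKM of Xist. Shh-Stk11 2 was therefore a male lung among 3 female ones, and counts without it are given at the end.

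Of the 31 genes, 26 averaged 0.5 FPKM or more across all libraries and were tested. All 26 had a negative log2 fold change, and 11 were lower in Shh-Stk11 lungs at an adjusted p under 0.05 in limma, against 1.29% of all 13770 genes tested. None of the 26 was higher past that threshold, against 0.98% of all genes, while 19 of the 26 were lower at an unadjusted p under 0.05, against 7.18% of all genes. Both Shh-Stk11 libraries lay below both Control libraries for 25 of the 26, against 27.6% of all genes tested. The median log2 fold change of the 26 was -1.19, against -0.05 over all genes tested. In FPKM, the median member was left at 38.6% of its Control mean, and members ranged from 23.9% to 88.8%. The libraries hold all cell types of the lung, so fewer ciliated cells and less RNA per ciliated cell cannot be told apart.

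**Figure D1:**
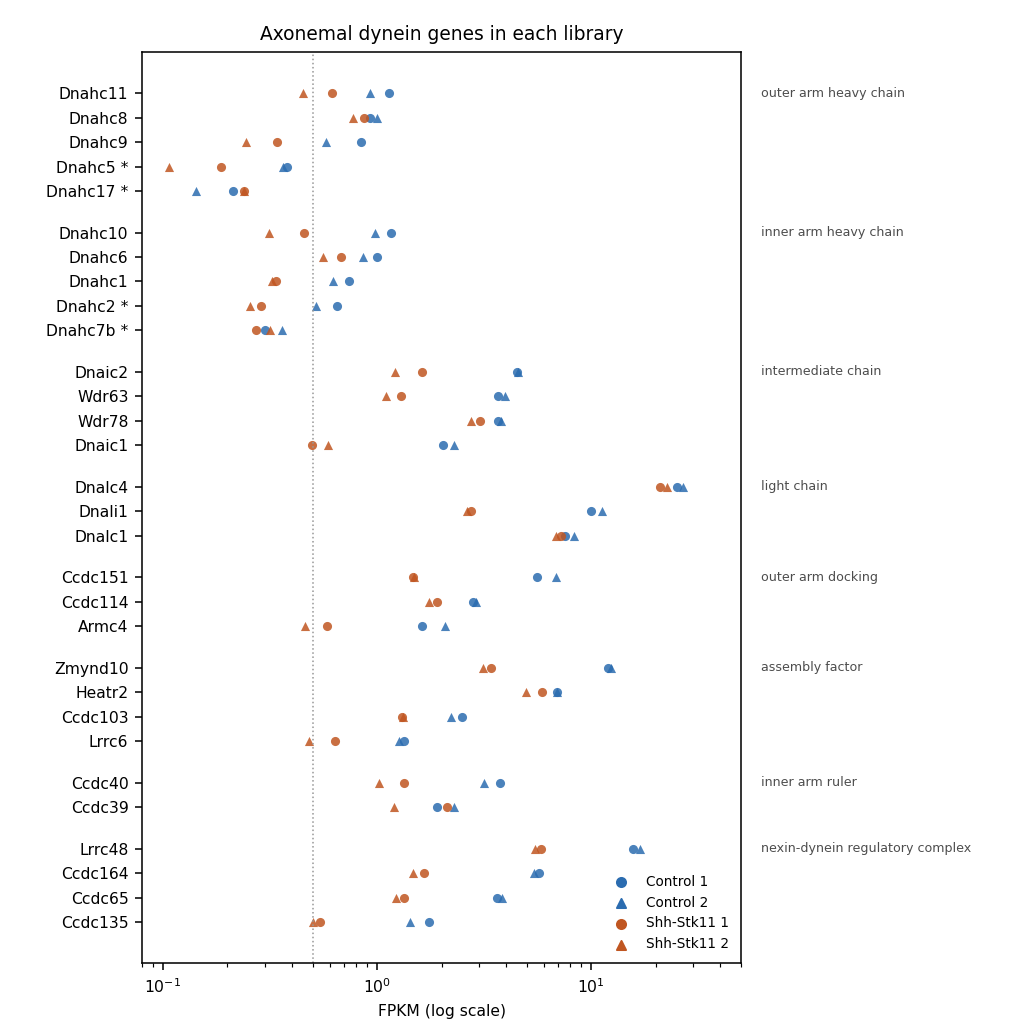
FPKM on a log scale of 30 axonemal dynein genes in the 4 libraries, grouped by role. Blue marks are Control and orange marks Shh-Stk11, circles replicate 1 and triangles replicate 2, the dotted line is 0.5 FPKM and an asterisk marks a gene under the filter. Txndc3 is left out because it was at 0 in a library. The orange marks lie left of the blue ones for 25 of the 26 genes tested, with Ccdc39 as the exception.

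The heavy chains are the ATPase motors themselves, and their levels were low, with Control means from 0.178 to 1.07 FPKM. None of the 6 heavy chains tested passed the threshold, with 4 lower at an unadjusted p under 0.05, against the same 7.18% of all genes. Among the outer arm heavy chains, Dnahc11 was at 1.14 and 0.929 FPKM in Control and at 0.614 and 0.449 FPKM in Shh-Stk11 lungs. Dnahc9 was at 0.845 and 0.578 FPKM in Control and at 0.341 and 0.246 FPKM in Shh-Stk11 lungs. The groups did not overlap for either gene, and the log2 fold changes were -0.85 (95% interval -1.58 to -0.12, limma adjusted p 0.252) and -1.03 (-1.94 to -0.13, adjusted p 0.257). Dnahc8 was at 0.932 and 0.996 FPKM in Control and at 0.871 and 0.773 FPKM in Shh-Stk11 lungs. This gene, which is best known from the sperm tail, kept 85.3% of its Control mean, the most of the 6 heavy chains tested (log2 fold change -0.21, 95% interval -0.83 to 0.42).

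Among the inner arm heavy chains, Dnahc10 was at 1.16 and 0.978 FPKM in Control and at 0.454 and 0.313 FPKM in Shh-Stk11 lungs. It encodes a chain of the double-headed inner arm, and its log2 fold change of -1.28 was the largest of the 6 heavy chains tested (95% interval -2.06 to -0.51, limma adjusted p 0.111). Dnahc1 was at 0.739 and 0.622 FPKM in Control and at 0.337 and 0.325 FPKM in Shh-Stk11 lungs. Dnahc6 was at 1.001 and 0.859 FPKM in Control and at 0.681 and 0.558 FPKM in Shh-Stk11 lungs. Both had every Shh-Stk11 value below every Control value, with log2 fold changes of -0.85 (95% interval -1.66 to -0.04, limma adjusted p 0.30) and -0.52 (-1.21 to 0.17, adjusted p 0.466). In FPKM, Dnahc1 was left at 48.7% and Dnahc6 at 66.6% of the Control mean.

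The intermediate chains sit at the base of an arm and anchor it to its doublet. Dnaic1, of the outer arm, was at 2.03 and 2.28 FPKM in Control and at 0.496 and 0.592 FPKM in Shh-Stk11 lungs. Dnaic2, its partner in the same arm, was at 4.48 and 4.56 FPKM in Control and at 1.62 and 1.22 FPKM in Shh-Stk11 lungs. Both fell, to 25.2% and 31.4% of the Control mean, with log2 fold changes of -1.81 (SE 0.245, limma adjusted p 0.0228) and -1.62 (SE 0.1998, adjusted p 0.0159).

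Wdr63 and Wdr78 encode intermediate chains of the inner arms. Wdr63 was at 3.68 and 3.97 FPKM in Control and at 1.29 and 1.097 FPKM in Shh-Stk11 lungs, and it fell with a log2 fold change of -1.60 (SE 0.192, limma adjusted p 0.0144). Wdr78 had nearly the same Control level, at 3.66 and 3.78 FPKM, but was at 3.01 and 2.76 FPKM in Shh-Stk11 lungs. Its groups did not overlap, yet 77.6% of the Control mean was left and the log2 fold change was -0.36 (95% interval -0.74 to 0.03, limma adjusted p 0.367). The intervals of Wdr63 (-2.06 to -1.14) and Wdr78 did not overlap.

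The light chains showed the widest split among the roles. Dnali1, the light intermediate chain of the single-headed inner arms, was at 10.01 and 11.2 FPKM in Control and at 2.74 and 2.62 FPKM in Shh-Stk11 lungs. It fell to 25.3% of its Control mean (log2 fold change -1.94, SE 0.144, limma adjusted p 0.00329). Dnalc1, now named Dnal1, binds the motor domain of an outer arm heavy chain, and was at 7.53 and 8.27 FPKM in Control and at 7.19 and 6.85 FPKM in Shh-Stk11 lungs. Dnalc4, now named Dnal4, was the most abundant member, at 25.1 and 26.9 FPKM in Control and at 20.8 and 22.5 FPKM in Shh-Stk11 lungs. Neither passed the threshold, with log2 fold changes of -0.17 (95% interval -0.49 to 0.15) and -0.26 (-0.55 to 0.03).

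The docking factors fix the outer arm to its doublet. Ccdc151 was at 5.57 and 6.81 FPKM in Control and at 1.46 and 1.49 FPKM in Shh-Stk11 lungs. It had the largest change of the 26 genes tested, to 23.9% of its Control mean (log2 fold change -1.99, SE 0.178, limma adjusted p 0.00526). Armc4 was at 1.62 and 2.07 FPKM in Control and at 0.584 and 0.459 FPKM in Shh-Stk11 lungs, and it fell as well (log2 fold change -1.64, SE 0.273, limma adjusted p 0.0398), although it missed the threshold in 8 of 15 alternatives (adjusted p up to 0.167). Ccdc114 was at 2.79 and 2.89 FPKM in Control and at 1.90 and 1.75 FPKM in Shh-Stk11 lungs. Its groups were apart, but it kept 64.4% of its Control mean and did not pass the threshold (log2 fold change -0.61, 95% interval -1.04 to -0.18, limma adjusted p 0.165).

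The assembly factors work in the cytoplasm, before the arm reaches the cilium. Zmynd10 was at 12.0 and 12.4 FPKM in Control and at 3.39 and 3.13 FPKM in Shh-Stk11 lungs, a fall to 26.8% of its Control mean (log2 fold change -1.87, SE 0.135, limma adjusted p 0.00329). Lrrc6, whose product binds that of Zmynd10, was at 1.34 and 1.26 FPKM in Control and at 0.638 and 0.480 FPKM in Shh-Stk11 lungs. Its groups did not overlap, and its log2 fold change was -1.099 (95% interval -1.77 to -0.43, limma adjusted p 0.113). Ccdc103 was at 2.50 and 2.204 FPKM in Control and at 1.30 and 1.32 FPKM in Shh-Stk11 lungs, with a log2 fold change of -0.80 (95% interval -1.28 to -0.32, limma adjusted p 0.112). Heatr2, which is also known as Dnaaf5, was at 6.91 and 6.88 FPKM in Control and at 5.87 and 4.94 FPKM in Shh-Stk11 lungs. This was the smallest change of the 4 assembly factors, with 78.3% of the Control mean left (log2 fold change -0.35, 95% interval -0.71 to 0.00491, limma adjusted p 0.336).

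The promoters of Ccdc151 and Zmynd10, a docking and an assembly gene that fell, are shown beside those of Heatr2 and Dnalc1, which kept most of their level. RFX factors and FOXJ1 are known to drive genes of motile cilia, and RFX factors bind a palindrome called the X-box. Each line gives the 250 bases upstream of the start site in RefSeq on GRCm38.p6, in the direction of the gene. Capitals mark a match to the relaxed X-box, GTNNCC and GGNNAC with 0 to 3 bases between them. The windows are chr9:22002635-22002884 on the minus strand for Ccdc151, chr9:107547054-107547303 on the plus strand for Zmynd10, chr5:139149985-139150234 on the plus strand for Heatr2 and chr12:84114078-84114327 on the plus strand for Dnalc1.
Ccdc151: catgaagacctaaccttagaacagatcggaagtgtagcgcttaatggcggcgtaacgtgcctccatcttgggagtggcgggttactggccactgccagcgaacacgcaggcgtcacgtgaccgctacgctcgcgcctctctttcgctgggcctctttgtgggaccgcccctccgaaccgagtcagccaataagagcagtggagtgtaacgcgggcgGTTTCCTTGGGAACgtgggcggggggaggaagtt
Zmynd10: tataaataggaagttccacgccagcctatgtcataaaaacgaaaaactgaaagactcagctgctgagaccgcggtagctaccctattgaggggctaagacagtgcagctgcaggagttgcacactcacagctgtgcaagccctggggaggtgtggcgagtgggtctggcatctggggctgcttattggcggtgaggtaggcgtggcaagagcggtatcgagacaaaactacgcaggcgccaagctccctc
Heatr2: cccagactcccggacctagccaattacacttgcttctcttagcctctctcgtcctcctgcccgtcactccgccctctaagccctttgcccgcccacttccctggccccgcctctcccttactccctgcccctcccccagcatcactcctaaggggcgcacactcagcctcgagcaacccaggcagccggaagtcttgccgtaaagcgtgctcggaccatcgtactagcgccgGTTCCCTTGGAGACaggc
Dnalc1: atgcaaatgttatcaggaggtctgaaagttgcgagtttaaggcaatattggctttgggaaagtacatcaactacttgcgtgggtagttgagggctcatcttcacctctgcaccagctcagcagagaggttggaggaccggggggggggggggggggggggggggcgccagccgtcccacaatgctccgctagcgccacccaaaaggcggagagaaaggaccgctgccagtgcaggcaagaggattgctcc

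The match in Ccdc151 began 34 bases and that in Heatr2 18 bases upstream of the start site, and Zmynd10 and Dnalc1 had no match in this window. Only the match in Ccdc151 was also one to the strict X-box, GTTNCC and GGNAAC with the same spacing, of which the relaxed form is a superset. Both strands were searched in the 28 members that the promoter table holds. The strict X-box was found in 1 of the 28 members and in 0.788% of all genes, and the relaxed X-box in 2 members and in 3.66% of all genes. Both patterns require CC in the first part and GG in the second. Sequences close to them, such as gttgctaggcaac in Dnaic2 and gttgctaagcaac in Dnahc6, were therefore not counted. The share of looser forms was computed neither for the members nor for all genes. The single RFX site GTTGCCA was found in 2 members, Ccdc164 and Dnahc7b, and in 4.19% of all genes. The forkhead site GTAAACA was found in 1 member, Dnahc17, and in 3.54% of all genes. Of the 5 genes with a counted match, Ccdc151 and Ccdc164 fell and Heatr2 did not pass the threshold. Dnahc7b, whose groups overlapped, and Dnahc17, whose Shh-Stk11 values were the higher ones, were under the filter and not tested.

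The ruler of the inner arms is formed by Ccdc39 and Ccdc40, whose products act as a pair. Ccdc40 was at 3.75 and 3.17 FPKM in Control and at 1.34 and 1.02 FPKM in Shh-Stk11 lungs, and it fell to 34.1% of its Control mean (log2 fold change -1.48, SE 0.220, limma adjusted p 0.0289). This call was lost in 5 of 15 alternatives. Ccdc39 was at 1.91 and 2.30 FPKM in Control and at 2.12 and 1.204 FPKM in Shh-Stk11 lungs. It was the one tested member whose groups overlapped, since Shh-Stk11 1 lay between the Controls and only Shh-Stk11 2 was lower (log2 fold change -0.37, 95% interval -1.08 to 0.34). In the annotation, exons of Ccdc39 share 1256 bases with Ttc14 on the opposite strand, and it is not stated in the sources used here whether the counting used strand. Ttc14 was at 5.11 and 6.96 FPKM in Control and at 10.8 and 10.2 FPKM in Shh-Stk11 lungs, without passing the threshold (log2 fold change 0.80, limma adjusted p 0.0814). With the trend on length and GC content removed, its log2 fold change was 0.28 (limma adjusted p 0.574). The part of Ttc14 in the values of Ccdc39 was not tested. Exons of 16 of the 31 genes overlap a gene on the opposite strand.

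The 4 subunits of the nexin-dynein regulatory complex changed by the most similar amounts of all roles at the pseudocount of 0.1. With a pseudocount of 1 their log2 fold changes ranged from -1.38 to -0.76, more widely than those of the tested inner arm heavy chains (-0.58 to -0.25). Lrrc48 (Drc3) was at 15.7 and 16.9 FPKM in Control and at 5.84 and 5.46 FPKM in Shh-Stk11 lungs. Ccdc164 (Drc1) was at 5.70 and 5.43 FPKM in Control and at 1.65 and 1.48 FPKM in Shh-Stk11 lungs. Both fell, with log2 fold changes of -1.51 (SE 0.129, limma adjusted p 0.00441) and -1.77 (SE 0.167, adjusted p 0.00635). Ccdc65 (Drc2), which forms the base plate of the complex together with Ccdc164, was at 3.61 and 3.83 FPKM in Control and at 1.34 and 1.22 FPKM in Shh-Stk11 lungs (a log2 fold change of -1.47, SE 0.183, limma adjusted p 0.0162). The call of Ccdc65 was lost in 5 of 15 alternatives. Ccdc135 (Drc7) was at 1.75 and 1.42 FPKM in Control and at 0.543 and 0.504 FPKM in Shh-Stk11 lungs. It missed the threshold (log2 fold change -1.43, 95% interval -2.07 to -0.79, limma adjusted p 0.0529), although its groups did not overlap, and passed it in 4 of 15 alternatives. All 4 were left at between 28.1% and 34.7% of their Control mean.

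**Figure D2:**
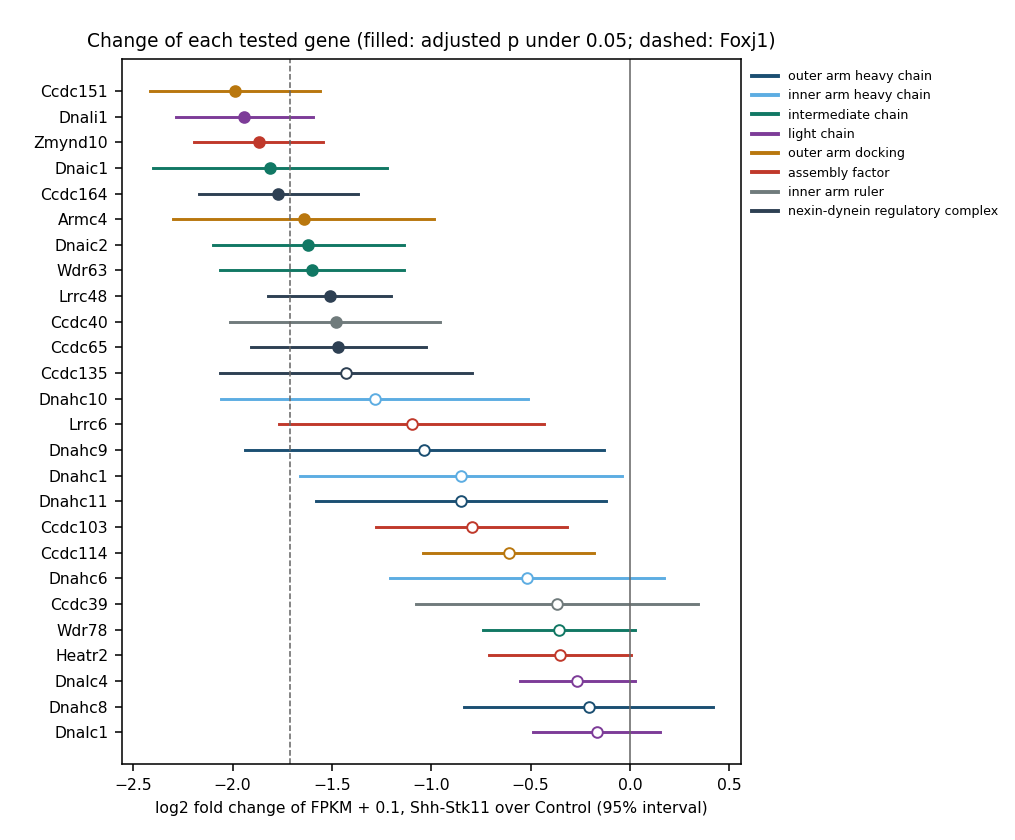
Log2 fold change of FPKM + 0.1 in Shh-Stk11 over Control lungs with its 95% interval, for the 26 genes tested, colored by role. Filled points had an adjusted p under 0.05 in limma, and the dashed line is the change of Foxj1, -1.71. The 11 filled points lie between -1.99 and -1.47, and the points of the heavy chains lie between -1.28 and -0.21.

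The 5 genes under the filter were 4 heavy chains and Txndc3. Dnahc2, an inner arm heavy chain, was at 0.647 and 0.518 FPKM in Control and at 0.288 and 0.256 FPKM in Shh-Stk11 lungs. Dnahc5, the outer arm heavy chain most often mutated in primary ciliary dyskinesia, was at 0.381 and 0.365 FPKM in Control and at 0.187 and 0.107 FPKM in Shh-Stk11 lungs. In both genes every Shh-Stk11 value lay below every Control value. Dnahc7b ranged from 0.273 to 0.360 FPKM over the 4 libraries with overlapping groups, and has close paralogs among which reads may be split. Dnahc17 was at 0.213 and 0.143 FPKM in Control and at 0.238 and 0.240 FPKM in Shh-Stk11 lungs, so that its Shh-Stk11 values were the higher ones. Txndc3 (Nme8), an intermediate chain, was at most at 0.1004 FPKM, or about 6.4 reads, and at 0 in Control 2. With the filter lowered to 0.1 FPKM, 30 members entered the fit and 12 were lower past the threshold, against 1.15% of all genes, and the added gene was Ccdc135 (adjusted p 0.0414).

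The heavy chains are also the longest members, with transcripts of 12.3 to 16.7 kb, and the fold change of all genes varied with transcript length in these libraries. The median log2 fold change was -0.19 over the 1364 shortest genes tested and 0.19 over the 1364 longest. A trend of the opposite slope separated the replicates of each genotype: over the 1364 longest genes the median difference was -0.20 for Control 2 minus Control 1, and -0.17 for Shh-Stk11 2 minus Shh-Stk11 1. Of the 6 heavy chains tested, 5 were lower in Control 2 than in Control 1, and 6 were lower in Shh-Stk11 2 than in Shh-Stk11 1. Of the 20 other members tested, 6 were lower in Control 2 than in Control 1, and 16 were lower in Shh-Stk11 2 than in Shh-Stk11 1. The part of the length trend in these differences was not tested. With the trend on length and GC content removed from each library, the median of the 6 heavy chains went from -0.85 to -1.08, and that of the 20 other members from -1.48 to -1.36. Dnahc10 then had a log2 fold change of -1.49 (limma adjusted p 0.0837) and Dnahc8 of -0.48 (adjusted p 0.476), and still no heavy chain passed the threshold. Dnahc10 passed it in 2 of 15 alternatives, with eBayes fitted without a trend (adjusted p 0.0473) or robustly (0.0464), where the other heavy chains did not. The pseudocount bore on the low heavy chains as well, whose median was -0.98 with a pseudocount of 0.01 and -0.37 with a pseudocount of 1.

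**Figure D3:**
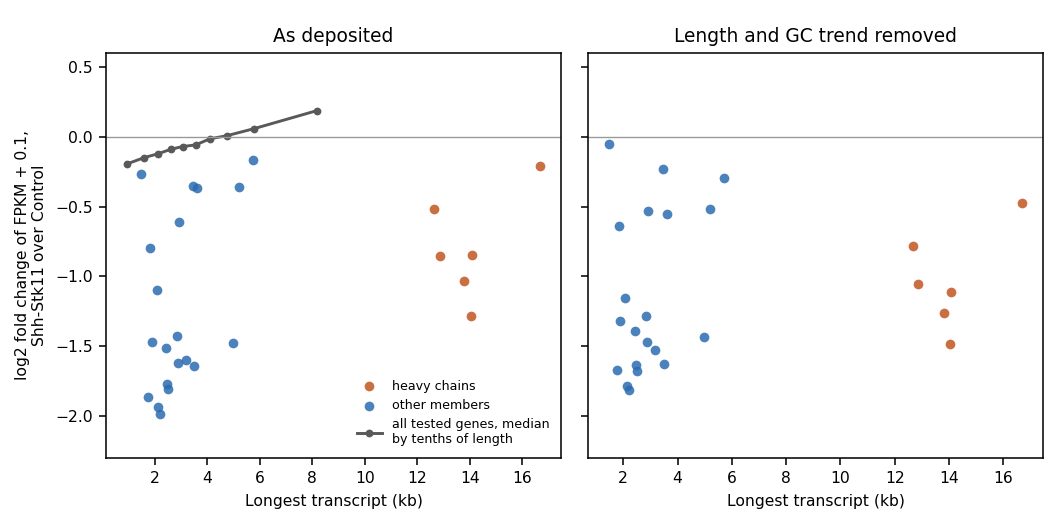
Log2 fold change of FPKM + 0.1 in Shh-Stk11 over Control lungs against the length of the longest annotated transcript in kb, for the 26 genes tested, as deposited (left) and with the trend on length and GC content removed (right). Orange points are the 6 heavy chains and blue points the 20 other members. The grey line, drawn on the left only, is the median of all tested genes in 10 bins of length and runs from -0.19 to 0.19. The heavy chains move down to a median of -1.08 on the right.

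The change of each member was then compared with that of Foxj1, the forkhead factor that directs the motile cilium program, by subtracting the log2 value of Foxj1 in the same library before the fit. Foxj1 was at 16.1 and 15.4 FPKM in Control and at 4.76 and 4.71 FPKM in Shh-Stk11 lungs (a log2 fold change of -1.71, SE 0.125, limma adjusted p 0.00329). Relative to Foxj1, 11 of the 26 members were higher in Shh-Stk11 lungs at an adjusted p under 0.05 in limma, that is, they were reduced less than Foxj1. Of all genes tested, 97.2% were likewise higher relative to Foxj1, whether or not they were reduced themselves. No member was lower relative to Foxj1, against 0.0799% of all genes. The other 15 members, among them all 11 that fell, did not differ from Foxj1 past the threshold, with intervals of unequal width. For Ccdc151 the difference from Foxj1 was -0.28 (95% interval -0.73 to 0.17), for Dnali1 -0.23 (-0.59 to 0.14), and for Lrrc48 0.20 (-0.13 to 0.53). Wider intervals, which leave room for a larger difference, were those of Dnahc9 (0.68, -0.22 to 1.58) and Lrrc6 (0.61, -0.06 to 1.285).

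Among the 11 members that were reduced less than Foxj1, Dnalc1 differed from it by 1.54 (95% interval 1.203 to 1.89, limma adjusted p 3.3e-05) and Dnalc4 by 1.45 (1.13 to 1.77, adjusted p 3.4e-05). Heatr2 differed from Foxj1 by 1.36 (1.001 to 1.72, adjusted p 7.1e-05) and Wdr78 by 1.36 (0.96 to 1.75, adjusted p 0.000116). Ccdc114 differed by 1.103 (0.66 to 1.54, adjusted p 0.000682) and Ccdc103 by 0.92 (0.44 to 1.40, adjusted p 0.00296), also in limma. The others were Ccdc39 and the heavy chains Dnahc1, Dnahc6, Dnahc8 and Dnahc11. The calls of Dnahc1 and Dnahc11 were weak. With the length and GC trend removed, the difference from Foxj1 went from 0.86 to 0.498 for Dnahc1 (limma adjusted p from 0.0448 to 0.186) and from 0.86 to 0.44 for Dnahc11 (from 0.0276 to 0.156), and that of Dnahc6 from 1.19 to 0.77, still past the threshold. Dnahc1 also missed the threshold with the replicate block and with any of the 4 libraries left out, and Dnahc11 without Control 2 or Shh-Stk11 1. The remaining 9 members differed from Foxj1 past the threshold in all of these fits, as did 96.4% to 97.0% of all genes in the same direction. Each of the intermediate chains, light chains, docking factors, assembly factors and ruler subunits thus included a gene that fell and a gene that was reduced less than Foxj1. Values of whole lung do not place a gene in a cell type, and expression of these genes outside ciliated cells was not tested.

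Other genes of the dynein arms and of the cilium were counted in the same fit. Of 28 further tested genes of arm assembly, docking and the regulatory complex, all 28 had a negative log2 fold change, with a median of -0.76, and 9 were lower past the threshold, against 1.29% of all genes tested. These calls were easily lost. None of the 28 passed without Shh-Stk11 2, without either Control library or with the replicate block, 0 passed without a filter on low values, and 4 did without Shh-Stk11 1. Once the length and GC trend was taken out, Iqcg (adjusted p 0.0427) was the only one still past it, and 2 were with quantile normalization. Over all genes, the share lower past the threshold was 0.922% without Shh-Stk11 2, 0.813% without Shh-Stk11 1, 0.211% without Control 1, 0.167% without Control 2, 0.0508% with the block, 0.225% without a filter, 0.937% with quantile normalization and 0.748% after removal of the trend. The largest changes were those of Ccdc108, which went from 2.82 and 2.78 FPKM in Control to 0.975 and 0.583 FPKM in Shh-Stk11 lungs (a log2 fold change of -1.76), and of Iqca (-1.74), Tcte1 (-1.70) and Tctex1d4 (-1.61). Pih1d1, Ruvbl1 and Ruvbl2, co-chaperones that most cells use and that also serve arm assembly, had log2 fold changes of -0.18, -0.39 and -0.51 and did not pass the threshold. Of 26 other tested genes of the motile axoneme, such as radial spokes, the central pair and tektins, all 26 had a negative log2 fold change, with a median of -1.23, and 16 were lower past the threshold, against the same 1.29% of all genes. It came to 11 after removal of that trend, 13 without Shh-Stk11 2, 9 without Shh-Stk11 1 and 5 without a filter. It fell to 1 (Rsph1) without either Control library and 0 with the replicate block. They included Tekt2 (-1.99), the radial spoke gene Rsph1 (-1.90) and the central pair gene Spag6 (-1.79).

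Cytoplasmic dynein and dynactin, which carry cargo in every cell, and the dynein of intraflagellar transport were measured by 29 tested genes. Their median log2 fold change was -0.09, and 1 of the 29 was lower past the threshold, against 1.29% of all genes. That gene was Dynlrb2, a roadblock light chain, at 80.1 and 94.5 FPKM in Control and at 21.8 and 24.4 FPKM in Shh-Stk11 lungs (a log2 fold change of -1.91, limma adjusted p 0.00329). Its paralog Dynlrb1 was at 261 and 327 FPKM in Control and at 277 and 278 FPKM in Shh-Stk11 lungs. Of the 11 regulators of the multiciliated fate, 3 were lower past the threshold: Foxj1, Myb (log2 fold change -1.37) and Ccno (-0.87), against 1.29% of all genes. With the length and GC trend removed Foxj1 was still past it, but Myb (adjusted p 0.0538) and Ccno (0.0723) were not. Foxj1 was also the one regulator past it without Shh-Stk11 2, and none of the 11, Foxj1 included, passed it without either Control library or with the replicate block. Rfx3, which binds the X-box, was at 2.40 and 2.15 FPKM in Control and at 4.13 and 3.35 FPKM in Shh-Stk11 lungs (a log2 fold change of 0.69, limma adjusted p 0.134). Rfx2, of the same family, was at 2.38 and 2.16 FPKM in Control and at 1.85 and 1.58 FPKM in Shh-Stk11 lungs, and did not pass the threshold either, with a log2 fold change of -0.39.

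**Figure D4:**
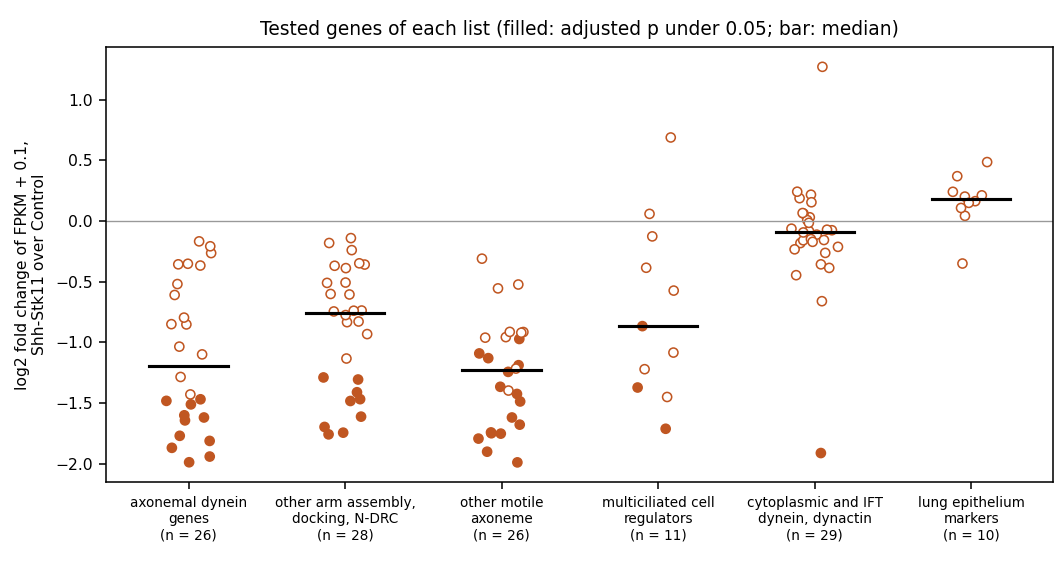
Log2 fold change of FPKM + 0.1 in Shh-Stk11 over Control lungs for the tested genes of 6 lists, 1 point per gene, spread sideways at random. Filled points had an adjusted p under 0.05 in limma and bars are medians. The medians are -1.19 for the axonemal dynein genes, -0.76 and -1.23 for the other genes of arms and axoneme, -0.87 for regulators of multiciliated cells, -0.09 for cytoplasmic dynein and dynactin and 0.18 for markers of the lung epithelium.

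Markers of the cell types in the libraries were counted in the same fit. The 10 markers of the lung epithelium, all tested, summed to 1110 to 1160 FPKM in Control and 1200 to 1390 FPKM in Shh-Stk11 lungs. None passed the threshold, with 2 of the 10 at an unadjusted p under 0.05, against 15.2% of all genes in either direction. Of the 10, 9 had positive log2 fold changes. The exception was Sox2, which the study places in airway progenitors, at 4.29 and 3.68 FPKM in Control. In Shh-Stk11 lungs Sox2 was at 3.14 and 3.06 FPKM (log2 fold change -0.35, limma adjusted p 0.388). The 11 regulators summed to 80.3 to 85.2 FPKM in Control and 55.6 to 60.2 FPKM in Shh-Stk11 lungs, and 9 of them had negative log2 fold changes. Much of this sum came from E2f4 and E2f5, with Control means of 23.45 and 14.7 FPKM. Of these means 91.6% and 104% were left, against 30.1% for Foxj1. None of the 5 tested markers of endothelium, 5 of mesenchyme, 5 of red blood cells, 4 of immune cells and 4 of heart muscle passed the threshold. At an unadjusted p under 0.05 were 3 of the 5 markers of red blood cells, 2 of the 5 of mesenchyme, 1 of the 5 of endothelium, 1 of the 4 of immune cells and 0 of the 4 of heart muscle, against the same 15.2%. Red blood cell markers were lower in sum, at 5670 to 5870 FPKM in Control and 3800 to 4180 FPKM in Shh-Stk11 lungs, and so were endothelial markers, at 430 to 512 FPKM in Control and 368 to 386 FPKM in Shh-Stk11 lungs. All tested markers of red blood cells, endothelium, mesenchyme and heart muscle had negative log2 fold changes, with medians of -0.52, -0.31, -0.15 and -0.80. Summed heart muscle markers (70.8 to 123 FPKM in Control and 39.2 to 80.2 FPKM in Shh-Stk11 lungs), mesenchyme markers (416 to 465 and 354 to 438 FPKM) and immune markers (288 to 325 and 196 to 381 FPKM) overlapped between the genotypes. The part of such shifts in the change of the dynein genes was not tested. The 3 club cell markers did not move one way. Scgb3a2 was lower past the threshold (log2 fold change -1.41, limma adjusted p 0.0422, but 0.103 once the length and GC trend was taken out). It was not past it without Shh-Stk11 2 or either Control library, or with the replicate block. Quantile normalization, median ratio scaling, eBayes without the trend, and a filter of 0.1 FPKM or none also lost this call. Scgb1a1 was at 221 and 102 FPKM in Control and at 312 and 471 FPKM in Shh-Stk11 lungs without passing the threshold (log2 fold change 1.35, limma adjusted p 0.144). Cyp2f2 had a log2 fold change of 0.0048. Male germ cells also use several of these genes. Of the 4 germ cell markers, Tnp1 was at 0 in every library, Dazl was at most at 0.0237 FPKM and Ddx4 at 0.227 FPKM, and Prm1 ranged from 0 in Shh-Stk11 2 to 0.494 FPKM in Control 2. None reached the filter, and their part in the result was not tested.

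Without Shh-Stk11 2, the male library, 8 members were lower past the threshold in limma, against 0.922% of all genes, and 25 of the 26 had a negative log2 fold change. Leaving out either Control library took the count of members past the threshold to 0, with 16 members lower at an unadjusted p under 0.05 without Control 1, against 7.07% of all genes, and 18 without Control 2, against 6.01%. The replicate block took it to 0 as well, with 17 members lower at an unadjusted p under 0.05, against 6.95% of all genes. With the length and GC trend removed, 10 members were lower past the threshold, against 0.748% of all genes.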

How the data were processed

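The authors extracted total RNA from whole lungs and sequenced single-end reads. They deposited FPKM values in a single table, with a column for each library. The submitters' processing notes name TopHat2 2.0.13, Cufflinks 2.2.1 and the builds GRCm38 and mm9, without their roles. The annotation, the use of strand and any scaling between libraries are not given in the sources used here.

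The 31 genes, the gene lists and the tests were chosen with earlier results of these data known. All symbols were matched to GENCODE M21 (20242 of 22556 directly and 1916 by RefSeq synonyms) for lengths, GC content and overlaps. Depth was estimated from the steps between low FPKM values, after taking 220 bases off the transcript length, and it covers counting error only. Genes that averaged 0.5 FPKM or more were tested with limma 3.58.1 in R 4.3.3 on log2(FPKM + 0.1), with genotype as the only term, eBayes with a trend, two-sided tests and Benjamini-Hochberg adjustment over all 13770 genes, at a threshold of 0.05. Log2 fold changes are on the scale of FPKM + 0.1, which understates the change of low genes. Intervals are at 95%. With 2 libraries per genotype the smallest two-sided p of an exact permutation test is 0.333, and the p-values given here rest on limma's moderation of the variance across genes (4.48 prior and 2 residual degrees of freedom). The procedure was tested on simulated data. Trends on length and GC content were fitted with mgcv 1.9.3.

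Every member is named. Genes outside the 31 come from lists of arm, axoneme, cytoplasmic dynein, regulator and cell type marker genes, with at most 5 past the threshold named in each list. Ttc14, Ruvbl1, Ruvbl2, Pih1d1, Dynlrb1, Rfx2, Rfx3, E2f4, E2f5, Iqcg, Sox2, Scgb1a1, Cyp2f2 and the germ cell markers were named after their values were seen. The alternatives were pseudocounts of 1 and 0.01, filters of 0.1 and 5 FPKM and none, quantile and median ratio scaling, eBayes without the trend or robust, replicate number as a block, removal of the length and GC trend, and leaving out each library. The comparison with Foxj1, its own alternatives and a crossed block were chosen after the data were seen. No motif search covered Armc4, Lrrc6 and Wdr78.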

Additional observations from a re-analysis of the deposited data

How the results depend on the processing

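Beside the 11 members that were lower past the threshold, 0 were higher, and 0 were higher in any of the 16 alternatives. The count of lower members was 10 to 14 under pseudocounts of 1 and 0.01, a filter of 0.1 FPKM, quantile and median ratio scaling, eBayes without the trend or robust, and removal of the length and GC trend, against 0.748% to 2.06% of all genes. It was 3 with a filter of 5 FPKM, where 6 members were tested, against 0.917% of all genes, and 4 without a filter, against 0.225% of 18188 genes. With the replicate block it was 0, against 0.0508% of all genes, with a smallest adjusted p of 0.0505 among the members, and same-numbered libraries deviated from their group means with a correlation of -0.11 over all genes, although replicates 1 and 2 differed along transcript length in the same direction in both genotypes. The labels do not say what the numbers stand for. With the numbers crossed, an alternative added after seeing the data, it was 12, against 2.29% of all genes, and 675 genes passed in all. Leaving out a library gave 0 to 10 lower members, with 0 without either Control library, against 0.211% and 0.167% of all genes, and 10 without Shh-Stk11 1, against 0.813%; there limma assumes that the lone sample varies like the other group. The cause of these losses was not tested. Ccdc151, Dnali1, Lrrc48 and Zmynd10 were lower past the threshold in all other alternatives that tested them.

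Over all genes, 313 passed the threshold. The number was 200 with a filter of 5 FPKM, 61 without a filter, 587 with robust eBayes, 13 with the replicate block, 189 with the length and GC trend removed, and 38 to 191 with a library left out. The median log2 fold change of the tested members, -1.19, was -0.57 with a pseudocount of 1, -1.36 with 0.01, -0.996, -0.93 and -0.96 with filters of 0.1 and 5 FPKM and with none, -1.09 with quantile normalization, -1.27 with the length and GC trend removed, and -1.37 to -0.999 with a library left out. Stk11, at -0.69, missed the threshold with a pseudocount of 1 (-0.67), filters of 0.1 FPKM and none, eBayes without the trend and the replicate block (-0.69 in each), quantile normalization (-0.62), median ratio scaling (-0.65), the length and GC trend removed (-0.58), and with each library left out (-0.78 to -0.60). Of the results of single members, 46 lost and 7 gained the threshold, and 342 kept direction and side. Ccdc39 changed sign without Shh-Stk11 2, and lay between -0.75 and 0.017 with a library left out. Groups of 2 are too small to test a library as an outlier. Lrrc6, Ccdc103 and Ccdc135, at about 95.8, 155.5 and 175 reads in Control 1, had few reads among the tested members. The part of depth in their results was not tested.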
